A study of Mus musculus with 18 samples.

Results

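The MHC class II genes described here are 7 genes chosen by symbol, of 24394 gene symbols in a table of RNA counts from 18 mouse livers. They are H2-Aa, H2-Ab1 and H2-Eb1, which encode chains of the classical class II molecules, Cd74, the invariant chain, H2-DMa and H2-DMb1, the chains of the peptide editor DM, and Ciita, the class II transactivator. All 7 were in the table. A filter on low counts kept 6 of them among 11218 genes tested, and Ciita fell below it.

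The livers form 3 groups of 6, each labelled as a separate liver. Stat3-deleted livers are those of mice with a tumour and the genotype Alb-Cre+/+;Stat3f/f. The second group came from tumour-bearing wild-type (WT) mice, and the third from control WT mice. Alb-Cre is Cre recombinase under the albumin promoter, which is used to delete genes in hepatocytes; which liver cells lost Stat3 was not measured. The labels name PDA.69, a T cell-low line derived from KPC pancreatic tumours, for the livers, control livers included; they give no age, sex, tumour site or time. There is no tumour-free Stat3-deleted group, so the deletion was compared within tumour-bearing mice only.

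Class II molecules present peptides from the endocytic route to CD4 T cells. Their alpha and beta chains assemble on the invariant chain, which proteases trim to a short fragment that DM then exchanges for peptide. In liver, class II is known chiefly from dendritic cells, B cells, Kupffer cells and sinusoidal endothelium, while interferon-gamma can switch Ciita, and through it the whole gene set, on in other cells.

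Total counts ran from 5212265 to 9545442 per liver, and levels below are CPM, counts divided by the TMM-scaled library size. The 3′ tags of Stat3 were 99.4 to 132 CPM in Stat3-deleted livers, 163 to 264 CPM in tumour-bearing WT livers and 93.6 to 148 CPM in control WT livers. Tags at the 3′ end do not measure loss of a floxed exon, so they do not check the deletion. Summed over 8 hepatocyte markers, the livers held 93333 to 110151 CPM with Stat3 deleted, 58165 to 126673 CPM in tumour-bearing WT and 51682 to 82774 CPM in control WT. One liver stood apart for the class II genes: replicate 3 of the control WT livers was the highest of all 18 livers for each of the 7 genes. It was 1.76 to 2.75 higher on the log2 scale than the mean of the other 5 controls. Class II results that use the control group are therefore given with and without it, a choice made after its class II counts had been seen. The numbers that open the labels' descriptions form a lower and a higher run: all 6 Stat3-deleted livers and 3 livers of each WT group are in the lower one. What the runs stand for is not given in the labels.

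Class II promoters are known for an X box, an X2 box and a Y box, bound by RFX, CREB and NF-Y, on which CIITA docks. Promoter windows, taken from RefSeq (build GRCm38.p6, which is mm10), were held for 4 of the 7 genes: H2-Aa, H2-Eb1, H2-DMb1 and H2-DMa. The 3 shown are printed because they hold X-type and Y-type letters close together. Capitals mark matches, on either strand, to AACNGATG for the X box core, TGACGTCA for the X2 box and GATTGG for the Y box core; these letters were chosen after the sequences had been seen. Each is the 150 bases before the gene's start, at chr17:34287824-34287973 on the minus strand for H2-Aa, chr17:34305717-34305866 on the plus strand for H2-Eb1 and chr17:34153041-34153190 on the plus strand for H2-DMb1.
H2-Aa: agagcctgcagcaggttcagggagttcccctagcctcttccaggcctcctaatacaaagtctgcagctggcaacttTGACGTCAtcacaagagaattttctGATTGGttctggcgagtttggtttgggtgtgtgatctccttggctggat
H2-Eb1: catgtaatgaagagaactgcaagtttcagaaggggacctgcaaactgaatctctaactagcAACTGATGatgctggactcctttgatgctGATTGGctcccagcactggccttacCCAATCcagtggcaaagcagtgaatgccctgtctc
H2-DMb1: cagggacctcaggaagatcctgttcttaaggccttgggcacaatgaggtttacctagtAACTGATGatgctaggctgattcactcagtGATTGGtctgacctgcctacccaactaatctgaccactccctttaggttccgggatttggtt

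The H2-Eb1 and H2-DMb1 windows held the same X box letters, at 89 to 82 and at 92 to 85 bases before the start. Between them and the Y box core lay 21 bases in H2-Eb1 and 22 in H2-DMb1. H2-Aa held the X2 box instead, 17 bases before its Y box core, and H2-Eb1 had another Y box core on the minus strand at 35 to 30 bases before the start. Of the H2-DMa windows, the first held none of the 3 motifs and the second a Y box core alone. Among 32851 windows of 250 bases, 1.98% held the X box core, 1.55% the X2 box, 14.6% the Y box core, and 0.511% a Y box core with either of the others. A match is a description of letters, not of binding.

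H2-Aa encodes the alpha chain of the I-A molecule and lies on chromosome 17 at 34282744 to 34287823. Its lowest, median and highest values were 59.4, 76.0 and 87.4 CPM in Stat3-deleted livers, 43.7, 53.6 and 71.8 CPM in tumour-bearing WT livers, and 24.4, 37.9 and 148 CPM in control WT livers. Of the 6 Stat3-deleted livers, 4 were above every tumour-bearing WT liver and 2 lay inside their range, and the control range spanned both. The means were 74.6 ± 10.5 CPM in Stat3-deleted, 56.0 ± 10.1 CPM in tumour-bearing WT and 55.9 ± 46.6 CPM in control WT livers (SD, n = 6 each).

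H2-Ab1, at 34263227 to 34269418 on the same chromosome, encodes the beta chain that pairs with H2-Aa. It measured 81.2, 88.0 and 137 CPM with Stat3 deleted, 41.9, 87.7 and 113 CPM in tumour-bearing WT livers, and 39.5, 50.7 and 269 CPM in controls (lowest, median and highest). The medians of both tumour-bearing groups were almost level, and every Stat3-deleted liver was above 4 of the 6 controls.

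H2-Eb1, the beta chain of the I-E molecule (34305867 to 34316674), had 46.6, 57.9 and 96.6 CPM in Stat3-deleted livers, 34.2, 50.3 and 64.7 CPM in tumour-bearing WT livers, and 25.7, 31.0 and 182 CPM in controls. All 3 groups overlapped. The E alpha locus, listed as the pseudogene H2-Ea-ps, was at 0 in all 18 livers.

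Cd74 escorts new class II chains to the endosome and lies on chromosome 18 at 60803849 to 60812652. Its lowest, median and highest values were 117, 134 and 196 CPM in Stat3-deleted livers, 64.5, 125 and 145 CPM in tumour-bearing WT livers, and 86.6, 111 and 447 CPM in controls. The 3 groups overlapped, and the highest control liver was 2.28 times the next highest of all 18.

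H2-DMa (34119693 to 34139101) and H2-DMb1 (34153191 to 34160229) encode the DM heterodimer. H2-DMa had 6.82, 9.29 and 23.3 CPM with Stat3 deleted, 3.78, 7.40 and 15.1 CPM in tumour-bearing WT livers and 2.17, 5.12 and 24.4 CPM in controls. For H2-DMb1 the values were 11.9, 13.4 and 28.6 CPM in Stat3-deleted, 9.53, 18.3 and 24.6 CPM in tumour-bearing WT and 5.89, 10.5 and 34.2 CPM in control livers. H2-DMb1 was the only one of the 6 tested genes whose median was lower in Stat3-deleted than in tumour-bearing WT livers. Its paralog H2-DMb2, 66.0% identical over the last 300 bases of the transcript, had 1 count over all livers.

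Ciita, on chromosome 16 at 10480014 to 10531064, was near the limit of detection. The 6 Stat3-deleted livers held 0, 0, 6, 5, 9 and 16 counts, tumour-bearing WT livers 11, 11, 4, 1, 3 and 0, and control livers 5, 0, 14, 2, 0 and 0, in the order of their replicate numbers. The sums were 36, 30 and 21 counts in that order of groups, and the 6 livers at 0 allow up to 0.376 to 0.454 CPM each (3 counts, counting error only). Differences in mean log2 CPM were -0.0016 for Stat3-deleted minus tumour-bearing WT (p = 1), 0.45 for Stat3-deleted minus control (p = 0.556) and 0.45 for tumour-bearing WT minus control (p = 0.545; exact two-sided permutation tests over all splits of 6 against 6, smallest possible p 0.00216). Stat3-deleted minus control was 0.90 without control WT replicate 3 (p = 0.221, exact two-sided permutation test, 6 against 5 livers). Tumour-bearing WT minus control was 0.91 without that liver (p = 0.190, exact two-sided permutation test, 6 against 5 livers). Dexi, on the opposite strand, covers the 3′ end of Ciita and had 6198 counts over the 18 livers. Without a stated strand setting, it is unknown how many reads of either gene were lost or counted for the other.

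**Figure D1:**
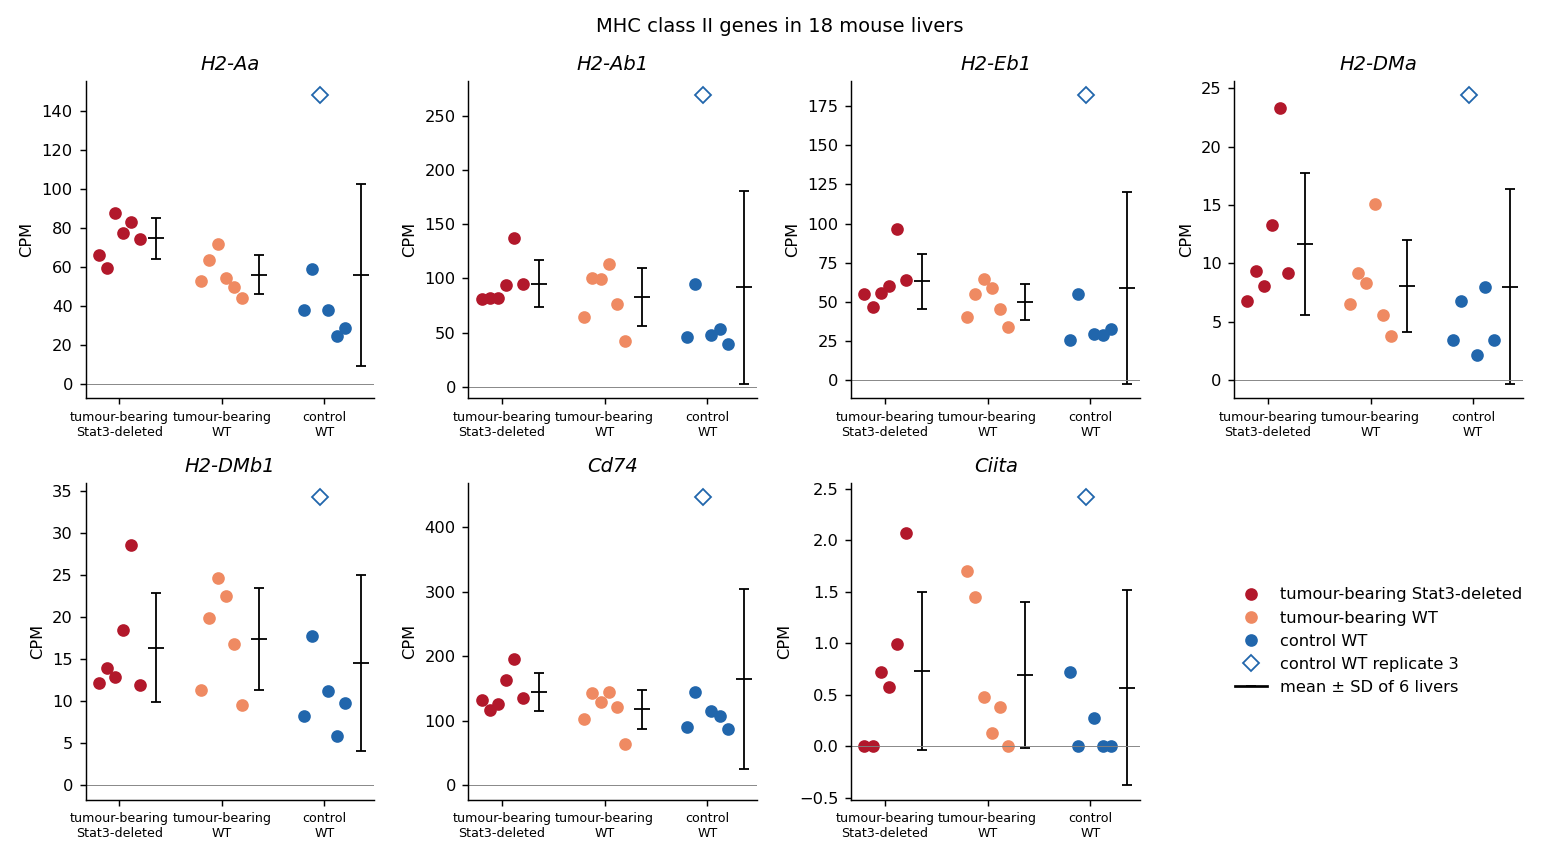
CPM of the 7 class II genes (y axis, linear, 1 panel per gene) in each liver, by group, with the mean ± SD of 6 livers as black bars. The open diamond, control WT replicate 3, is the highest point in every panel, at 148 CPM for H2-Aa and 447 CPM for Cd74.

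Stat3-deleted livers were first set against tumour-bearing WT livers, the comparison of genotypes within tumour-bearing mice. Cre, the floxed alleles and any loss of Stat3 differ together in it and cannot be told apart. None of the 6 class II genes tested passed an adjusted p of 0.05 (edgeR quasi-likelihood test, Benjamini-Hochberg over all genes tested), where 6.12% of all genes did (2.89% of all genes rose). Of the 6, 0 had an unadjusted p under 0.05, where 19.4% of all genes had one, and DESeq2 and limma voom likewise called 0. H2-DMa had the largest log2 fold change, 0.53 (95% interval -0.40 to 1.46, adjusted p = 0.551). H2-Aa followed with 0.41 (-0.22 to 1.04, adjusted p = 0.489), and all 6 Stat3-deleted livers were above the tumour-bearing WT mean on the log2 scale. The fold changes were 0.34 for H2-Eb1, 0.30 for Cd74, 0.20 for H2-Ab1 and -0.10 for H2-DMb1. Their median was 0.32, against -0.03 for all genes tested, and 5 of 6 were above 0, as were 45.9% of all genes. The intervals reach 0.95 to 1.46 on the log2 scale for the 5 genes above 0, so increases of that size lie inside them. The spread of each gene was estimated over all 18 livers. Control WT replicate 3 therefore enters these intervals and p-values, though it is in neither group. With the 2 groups alone, none passed either. With the run of label numbers as a block over all 18 livers, which was added after seeing the data, the signs changed: H2-Aa had -0.04, H2-Eb1 -0.12, Cd74 -0.04 and H2-Ab1 -0.26, and H2-DMa alone was above 0 (0.19). Within the lower run alone, 6 Stat3-deleted and 3 tumour-bearing WT livers, 5 of 6 were above 0, with H2-Aa at 0.26, and none passed in either fit.

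Stat3-deleted livers were then set against control WT livers, a comparison in which tumour and deletion differ together and cannot be told apart. With all 18 livers, 0 of 6 class II genes passed and 0 had an unadjusted p under 0.05, where 4.85% of all genes were called, 2.19% rose and 20.8% had such a p. H2-DMa differed by 0.56 (95% interval -0.37 to 1.499), H2-Aa by 0.42 (-0.21 to 1.05), H2-DMb1 by 0.18, H2-Eb1 by 0.10, H2-Ab1 by 0.05 and Cd74 by -0.19 on the log2 scale. The median was 0.14, against -0.01 for all genes, and 5 of 6 were above 0, as were 49.1% of all genes. DESeq2 and limma voom called none of the 6.

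Without control WT replicate 3 the same comparison gave other calls: H2-Aa and H2-Eb1 rose, 2 of 6 genes, where 3.67% of 11336 genes were called and 1.77% rose. The 5 remaining controls held 24.4 to 58.8 CPM of H2-Aa, all below the lowest Stat3-deleted liver at 59.4 CPM. The log2 fold change of H2-Aa was 0.97 (SE 0.19, 95% interval 0.57 to 1.37, adjusted p = 0.0086). For H2-Eb1, with 25.7 to 54.8 CPM in those 5 controls, it was 0.86 (SE 0.22, 0.41 to 1.31, adjusted p = 0.0305).

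The other 4 genes did not pass without that liver. H2-DMa had 1.28 (adjusted p = 0.0609), H2-Ab1 0.73 (adjusted p = 0.0902), H2-DMb1 0.61 (adjusted p = 0.255) and Cd74 0.40 (adjusted p = 0.254). All 6 fold changes were above 0, with a median of 0.80 against -0.03 for all genes, of which 47.1% were above 0. An unadjusted p under 0.05 was reached by 4 of the 6, and by 19.7% of all genes. H2-Aa stayed below 0.05 when any other liver was left out as well, and with library totals, RLE size factors, DESeq2, limma voom or the replicate number as a block (adjusted p 0.00011 to 0.0324). H2-Eb1 did not with library totals (0.0749), with the block (0.0519), or when control 1 (0.0837), 4 (0.0889), 5 (0.0726) or 6 (0.0676) or Stat3-deleted replicate 5 (0.0843) was left out too. With the run of label numbers as a block H2-Aa had 0.71 (adjusted p = 0.0382) and H2-Eb1 0.68 (0.103), and within the lower run alone, where 2 controls remained, neither passed (H2-Aa 0.62, adjusted p = 0.147; H2-Eb1 0.64, 0.279). The liver was left out because of the same genes' counts, so these p-values describe its weight and are not a separate test.

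Tumour-bearing WT livers were set against control WT livers to ask what a tumour in the mouse does to the WT liver. No class II gene passed and 0 of 6 had an unadjusted p under 0.05, where 2.25% of all genes were called, 1.76% rose and 16.2% had such a p; DESeq2 and limma voom called 0 as well. Cd74 had the largest difference, -0.49 on the log2 scale (95% interval -1.14 to 0.16, adjusted p = 0.467), and H2-DMb1 the highest, 0.28 (-0.43 to 0.99). H2-Aa differed by 0.01, H2-DMa by 0.03, H2-Ab1 by -0.15 and H2-Eb1 by -0.24. The median was -0.07, against 0.00 for all genes, and 3 of 6 were above 0, as were 50.6% of all genes. The signs depend on the scaling: library totals without TMM moved the median of all genes by -0.19, and put H2-Aa at -0.19 and H2-DMa at -0.16.

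Without control WT replicate 3, all 6 class II genes were above 0 in tumour-bearing WT livers (median 0.54), where 48.1% of all genes were. An unadjusted p under 0.05 was reached by 4 of them and by 15.3% of all genes. None passed after adjustment, where 2.04% of all genes did and 1.66% rose. H2-Aa had 0.56 (95% interval 0.16 to 0.96, adjusted p = 0.147), H2-DMb1 0.70 (adjusted p = 0.252) and Cd74 0.09 (adjusted p = 0.869). H2-Aa passed when control WT replicate 2 was left out too (0.78, adjusted p = 0.0223). The comparison of Stat3-deleted with tumour-bearing WT livers sets no control against them, but its spread is estimated with the controls. Without control WT replicate 3 it gave a median of 0.32 with 5 of 6 above 0 (45.9% of all genes). None of the 6 passed, where 5.72% of all genes did and 2.72% rose. H2-Aa alone had an unadjusted p under 0.05, as had 18.9% of all genes (log2 fold change 0.41, adjusted p = 0.207).

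**Figure D2:**
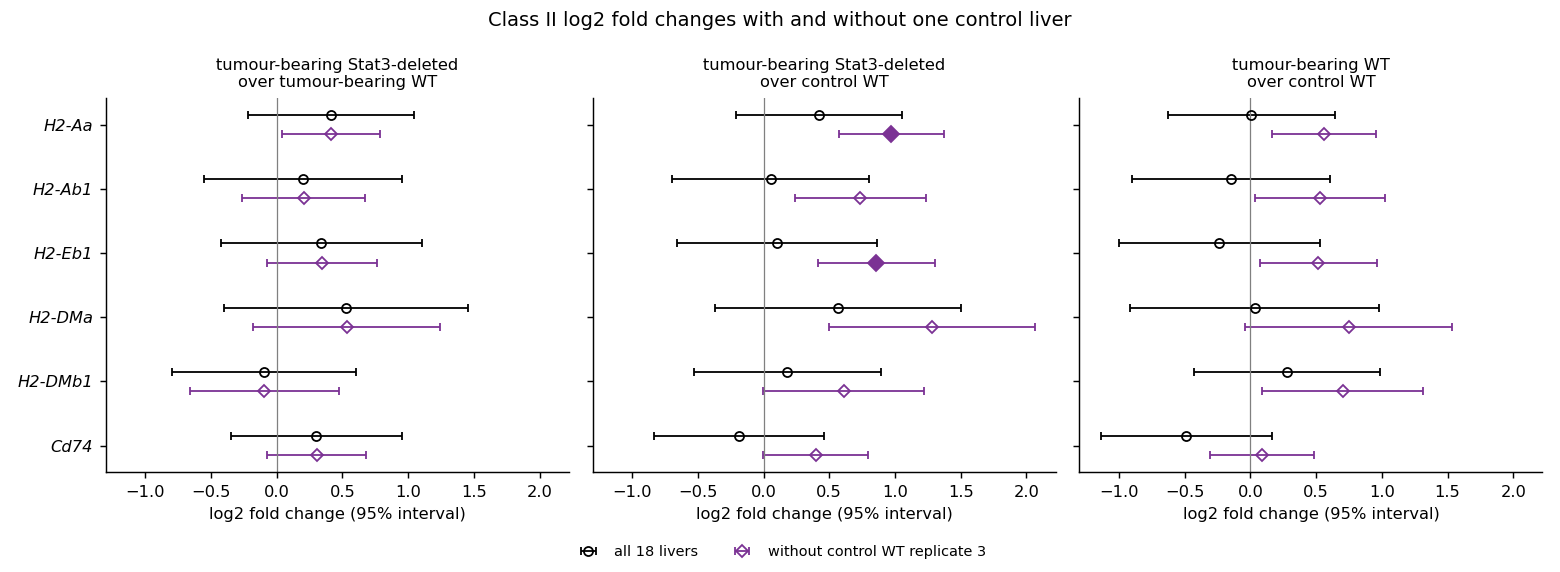
Log2 fold changes (x axis) of the 6 tested class II genes with 95% intervals in the 3 comparisons, for all 18 livers (black circles) and without control WT replicate 3 (purple diamonds); filled symbols have an adjusted p under 0.05. The filled symbols are H2-Aa at 0.97 and H2-Eb1 at 0.86, both in Stat3-deleted over control WT livers without that liver.

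By Pearson's r, class II genes varied together from liver to liver within a group, to an extent that depended on the gene. Cd74 (log2 CPM) was set against the other 6 genes and the interferon-inducible GTPase Igtp inside the 3 groups, 21 relations in all. Of these, 11 had an adjusted p under 0.05 by Pearson's r and 0 by Spearman's rho (exact permutation tests over 720 pairings, n = 6 each). The smallest possible unadjusted p of rho is 0.00278. Even a rho of 1 had an adjusted p of 0.0583, so the 0 by rho cannot be read against the 11 by r. In tumour-bearing WT livers r of Cd74 with H2-Ab1 was 0.97 and rho 1 (adjusted exact p 0.0292 and 0.0583), and r was 0.88 without the 2 livers farthest in Cd74. Stat3-deleted livers gave r = 0.91 and rho = 0.71 for the same pair (adjusted exact p 0.0421 and 0.26), and r = 0.55 without the 2 farthest. Cd74 with H2-Eb1 in Stat3-deleted livers had r = 0.90 and rho = 0.89 (adjusted exact p 0.0389 and 0.153), and r was 0.91 without the 2 farthest.

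H2-Aa was less tightly tied to Cd74 in tumour-bearing mice, with r = 0.54 and rho = 0.43 in Stat3-deleted livers (adjusted exact p 0.293 and 0.489) and r = 0.70 and rho = 0.71 in tumour-bearing WT livers (0.163 and 0.26); the difference between genes was not tested. The DM chains had r of 0.85 to 0.90 and rho of 0.43 to 0.94 with Cd74 in both tumour-bearing groups (adjusted exact p 0.0389 to 0.0538 for r and 0.117 to 0.489 for rho). In Stat3-deleted livers these values rest on the 2 livers farthest in Cd74: without them r was -0.44 for H2-DMa and -0.997 for H2-DMb1. In tumour-bearing WT livers r without the 2 farthest was 0.89 for H2-DMa and 0.41 for H2-DMb1. So few livers remain in each case that these r were not tested and describe the weight of the 2 livers only. Control livers fall into replicate 3 and the rest, so no r over all 6 is given. Their 5 relations among the 11 include that with Igtp, which is not a class II gene, and rest on that liver. Without the 2 farthest livers r was 0.75 for H2-Ab1, 0.27 for Igtp, 0.07 for H2-Aa, -0.01 for H2-DMb1 and -0.11 for H2-Eb1. Leaving out 1 liver moved the number of relations called to between 0 and 11.

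**Figure D3:**
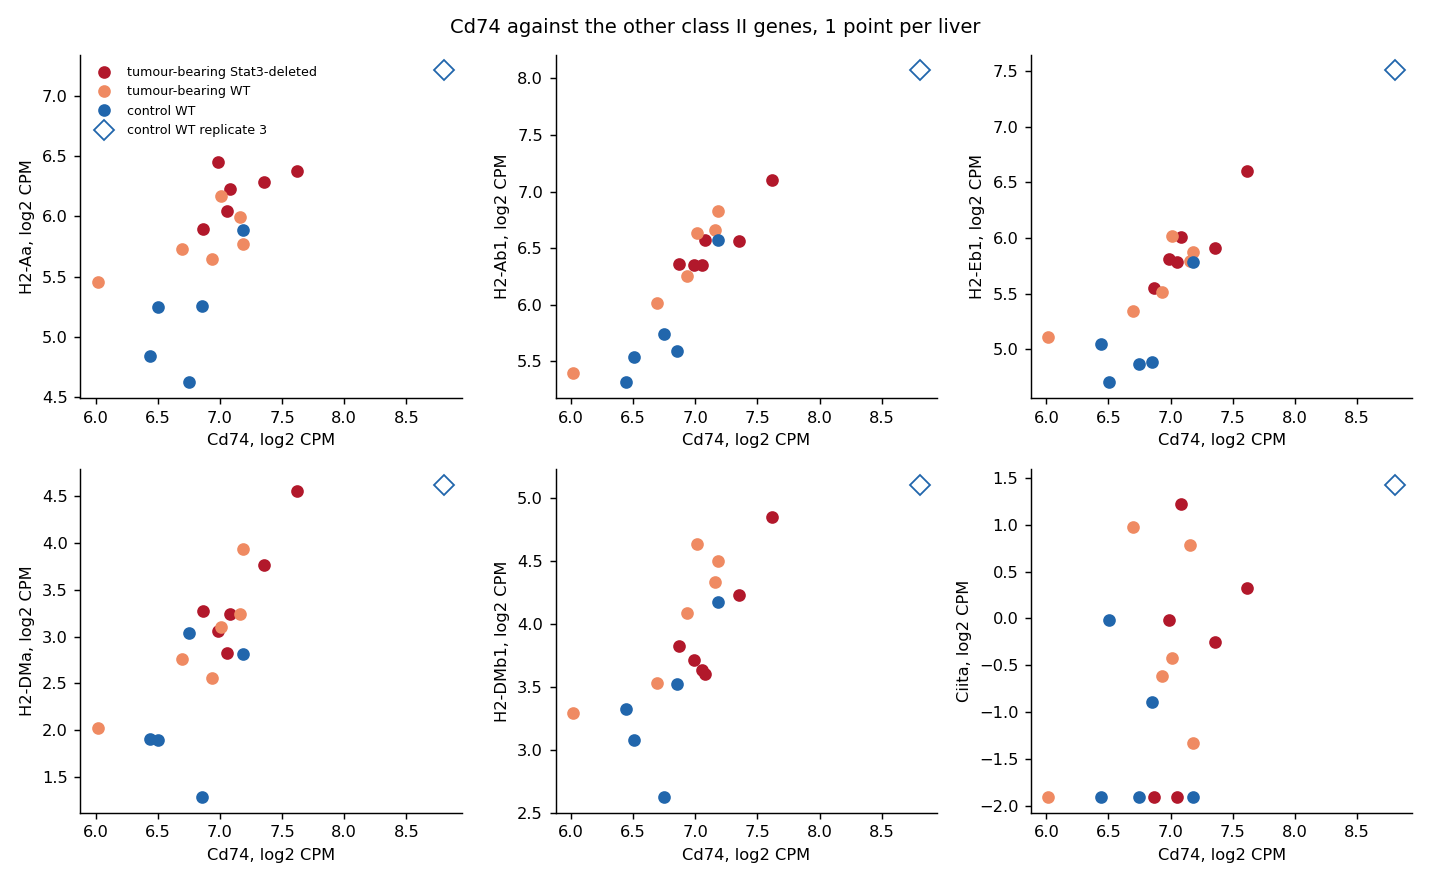
Log2 CPM of 6 class II genes (y axes) against log2 CPM of Cd74 (x axes), 1 point per liver, coloured by group. Control WT replicate 3 (open diamond) lies at the upper right of each panel, at 447 CPM of Cd74, and the remaining livers line up most closely for H2-Ab1.

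The genes most like the class II genes were sought among all genes tested, by the r of their within-group deviations with the mean of the 6 over 18 livers, as a description. The first 5 were Nkg7 (r = 0.92), a granule protein of T and NK cells, Ccl5 (0.91), a chemokine, Cd52 (0.90), a leukocyte surface protein, Cxcl9 (0.87), an interferon-gamma inducible chemokine, and Aif1 (0.87), a macrophage protein. Without control WT replicate 3 the first 5 were Ccl5 (0.88), Slc8a1 (0.88), Aif1 (0.87), Fyb (0.86) and Serpinb8 (0.85), and 3 genes stood in the first 10 of both lists. Libraries and their depth are shared by all these points. H2-Ab1 and H2-Eb1 followed the mean of the other class II genes most closely (r = 0.98 and 0.97), and H2-DMa least (0.83). With control WT replicate 3 left out they had 0.96 and 0.92, and H2-Aa was lowest (0.64), next to H2-DMa (0.66).

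Control WT replicate 3 was also the highest liver for some other immune genes, though not for Igtp. It held 246 CPM of Cxcl9, against 20.0 to 47.9 CPM in the other controls, and 37.8 CPM of Ccl5, against 2.74 to 16.9 CPM. Its 11 T and NK cell markers summed to 43.6 CPM, where the other 17 livers had 6.19 to 22.1 CPM, and 7 of the 11 were highest there. The sum over 10 B cell markers was also the highest of all livers, at 20.0 CPM, while dendritic markers (29.2 CPM) ranked 2 and Kupffer markers (1275 CPM) ranked 9 of 18. Among controls, replicate 3 was the highest for both. The other controls had 14.1 to 27.1 CPM of dendritic and 501 to 974 CPM of Kupffer markers. Its monocyte and recruited macrophage markers summed to 116 CPM, against 31.0 to 69.8 CPM in the other controls. Its endothelial markers (291 CPM) ranked 13 of 18. Igtp was 99.2 CPM, against 16.6 to 36.7 CPM in the other controls, while 5 of 6 Stat3-deleted livers held 229 to 854 CPM. The part of these cells and genes in that liver's class II counts was not tested.

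Cells that express class II were followed by marker lists in the same tests. In bulk liver, fewer cells of a type and less RNA per cell cannot be told apart. With all livers, 3 of 12 Kupffer markers rose in Stat3-deleted against control livers (C1qc, Vsig4 and Cd5l; median 0.81), where 4.85% of all genes were called. In tumour-bearing WT against control livers 2 of 12 rose (Cd163 and Vsig4; median 0.74), where 2.25% of all genes were called. Without control WT replicate 3, where H2-Aa and H2-Eb1 rose in Stat3-deleted livers, 5 of 12 Kupffer markers rose in each of those 2 comparisons. Of all genes, 1.77% rose in the first of them and 1.66% in the second. Summed Kupffer markers were 879 to 2353 CPM in Stat3-deleted, 893 to 2133 CPM in tumour-bearing WT and 501 to 1275 CPM in control livers. Of 11 monocyte and recruited macrophage markers, Cd68 rose in Stat3-deleted and Trem2 in tumour-bearing WT livers, each against controls and with all livers. There 2.19% and 1.76% of all genes rose, in that order. Without control WT replicate 3, 2 of the 11 rose in Stat3-deleted livers (Cd68 and S100a4, median 0.73), where 1.77% of all genes rose, again against controls. In tumour-bearing WT livers 4 rose against controls (S100a4, Cx3cr1, Trem2 and Plac8, median 1.02), where 1.66% of all genes rose. In Stat3-deleted against tumour-bearing WT livers with all livers, 0 of 12 Kupffer markers passed (median 0.03, 6 above 0). Of the 11 monocyte and recruited macrophage markers 0 passed there (median -0.34, 2 above 0). In that comparison 6.12% of all genes were called and 45.9% were above 0. The part of these cells in the class II values was not tested.

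None of 8 dendritic markers or 3 B cell markers passed in any comparison with edgeR's test, with or without that liver. With all livers 2 of 8 dendritic and 2 of 3 B cell markers had an unadjusted p under 0.05 in Stat3-deleted against control livers, where 20.8% of all genes had one. The dendritic pair had opposite signs (Itgax 1.53, Zbtb46 -1.504), and all 3 B cell markers were below 0 (median -0.93). Such a p was reached by 2 of 8 dendritic and 1 of 3 B cell markers without control WT replicate 3, and by 19.7% of all genes. Dendritic markers summed to 17.3 to 28.7 CPM in Stat3-deleted, 17.6 to 40.0 CPM in tumour-bearing WT and 14.1 to 29.2 CPM in control livers. B cell markers summed to 3.88 to 11.8 CPM, 4.09 to 17.8 CPM and 7.33 to 20.0 CPM in that order, and Cd79a, Pax5 and Blk had a median of 0 CPM over the livers. Of 10 endothelial markers, Clec4g and Stab2 rose in Stat3-deleted against control livers, where 2.19% of all genes rose. The 10 markers summed to 293 to 409 CPM in Stat3-deleted and 224 to 303 CPM in control livers.

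Where 6.12% of all genes were called, 1 of 11 other class II chains and processing genes tested fell in Stat3-deleted against tumour-bearing WT livers (median -0.23). It was Ctsl, a lysosomal protease, with 451 CPM on average in Stat3-deleted and 985 CPM in tumour-bearing WT livers (log2 fold change -1.13, SE 0.29, adjusted p = 0.0201). The ranges overlapped, at 381 to 555 CPM in Stat3-deleted and 505 to 1993 CPM in tumour-bearing WT livers, whose median was 814 CPM. Ifi30, a lysosomal thiol reductase that opens disulphide bonds of antigens, alone rose in Stat3-deleted against control livers, with 50.5 against 26.3 CPM on average (0.94, SE 0.20, adjusted p = 0.0115). Of all genes, 2.19% rose in that comparison. None of the 11 passed in tumour-bearing WT against control livers, where 10 were above 0 (median 0.23), as were 50.6% of all genes. An unadjusted p under 0.05 was reached there by 5 of the 11 and by 16.2% of all genes. Ctss, the protease that trims the invariant chain, had 88.3 CPM on average in Stat3-deleted, 94.96 CPM in tumour-bearing WT and 64.3 CPM in control livers. It did not pass in tumour-bearing WT against control livers with all livers (adjusted p = 0.174), and rose there without control WT replicate 3. None of 8 costimulatory genes tested passed in any comparison with edgeR. At an unadjusted p under 0.05 stood 2 in Stat3-deleted against tumour-bearing WT livers, where 19.4% of all genes did. There were 0 in Stat3-deleted against control (20.8% of all genes) and 2 in tumour-bearing WT against control livers (16.2%). These numbers were 3, 2 and 2 without control WT replicate 3, beside 18.9%, 19.7% and 15.3% of all genes.

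Of the class II transcription and interferon-gamma signalling genes, Irf1, an activator of Ciita, rose in Stat3-deleted against tumour-bearing WT livers. It had 101.4 CPM in Stat3-deleted and 39.0 CPM in tumour-bearing WT livers on average (log2 fold change 1.38, SE 0.34, adjusted p = 0.015). Irf1 rose against control livers too (1.69, SE 0.34, adjusted p = 0.008). Rfx5, the X box factor, differed by -0.05 between Stat3-deleted and tumour-bearing WT livers (95% interval -0.40 to 0.30).

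Interferon-inducible genes outside class II were called where class II genes were not. Of 11 class I and immunoproteasome genes, 5 rose in Stat3-deleted against tumour-bearing WT livers (median 0.64), where 2.89% of all genes rose. Against control livers 6 rose (median 1.01), where 2.19% of all genes did. Tap1, the peptide transporter, differed by 1.79 and Psmb9, an immunoproteasome subunit, by 1.78 in the first of these comparisons. Of 9 interferon-gamma inducible GTPases, 7 rose against tumour-bearing WT (median 2.18) and 6 against control livers (median 1.95). Igtp had 71.5 to 854 CPM in Stat3-deleted livers and 22.1 to 38.2 CPM in tumour-bearing WT livers, which did not overlap (4.05, 95% interval 3.02 to 5.07). Leaving out control WT replicate 3, 8 of the 11 class I genes (median 0.91) and 8 of the 9 GTPases (median 2.10) rose in Stat3-deleted against control livers. Of all genes, 1.77% rose there. In tumour-bearing WT against control livers with all livers 0 of these 20 genes passed, where 2.25% of all genes did. An unadjusted p under 0.05 was reached by 1 of them, and by 16.2% of all genes. No test set the class II genes against these lists, so a difference between them was not tested.

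**Figure D4:**
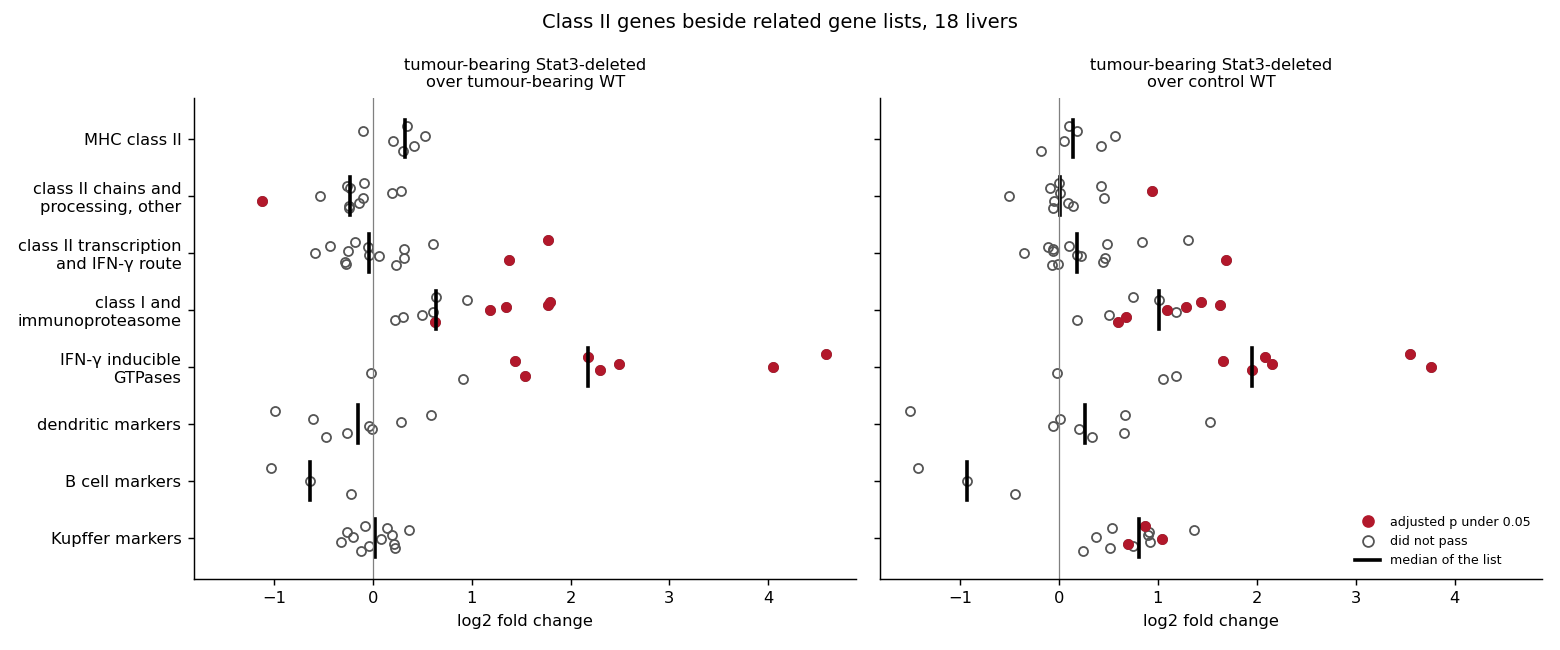
Log2 fold changes (x axis) of the 6 class II genes and of 7 related lists in Stat3-deleted over tumour-bearing WT livers and over control WT livers, all 18 livers; red points have an adjusted p under 0.05 and black bars are list medians. Class II medians lie at 0.32 and 0.14, and those of the interferon-gamma inducible GTPases at 2.18 and 1.95.

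Inside the Stat3-deleted group the levels of Cd74 and Igtp were set side by side. Igtp was lowest in replicate 6, at 71.5 CPM, where Cd74 stood at 135 CPM, close to the group's median of 134 CPM. Replicate 5 was highest for Igtp (854 CPM), for Cd74 (196 CPM) and for 4 of the other 5 tested class II genes. The r of Cd74 with Igtp was 0.39 and rho 0.26 in Stat3-deleted livers (adjusted exact p 0.458 and 0.691, n = 6), and r was -0.72 without the 2 farthest livers. In tumour-bearing WT livers r was 0.59 and rho 0.49 (adjusted exact p 0.285 and 0.467), and r was 0.06 without the 2 farthest.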

How the data were processed

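RNA of 18 mouse livers was measured with Quantseq 3′ FWD libraries (Lexogen), which read the end of polyadenylated RNA. Per the submitters' processing notes, reads were aligned with STAR to mm10; its version, the counter, the annotation and the handling of strand were not given in the sources used here. The authors deposited raw counts per gene symbol, in 1 table of 24421 symbols. Of these, 27 had become spreadsheet dates (0.103 to 0.166% of counts) and were left out. Positions, matched by symbol, and promoters are RefSeq's, on GRCm38.p6.

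Tests used R 4.3.3 and edgeR 4.0.16: TMM scaling, filterByExpr (11218 genes), a quasi-likelihood fit over all 18 livers (15 residual degrees of freedom), 3 two-sided contrasts and Benjamini-Hochberg adjustment over all genes tested. Log2 CPM has a prior count of 2. Ciita, below the filter, and the relations with Cd74 had exact permutation tests. Alternatives were DESeq2 1.42.0, limma 3.58.1 (voom), RLE factors, library totals, other filters, the 2 groups alone, blocks, and each liver left out. The fit was tested on simulated data, with 100 genes changed 2-fold and 100 changed 4-fold per comparison. It recovered 58 and 86 of them in tumour-bearing WT against control livers. In Stat3-deleted against tumour-bearing WT livers it recovered 62 and 94, and in Stat3-deleted against control livers 68 and 94. Of the unchanged genes, 6, 7 and 5 were called in that order of comparisons. Members, lists and comparisons were chosen with earlier results of these data known; named genes are the 7 members, up to 4 called genes per list and contrast by adjusted p, and the genes most like the members. Rfx5, Ctss and the genes of control WT replicate 3 were named outside that rule, after their values were seen. Python 3.11.15 and matplotlib 3.10.9 drew the plots. Of the list of class II transcription and interferon-gamma signalling genes, 1 result is not reported here.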

Additional observations from a re-analysis of the deposited data

Results flagged for a closer look

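In 8 of 21 sets of 6 livers (7 class II genes in 3 groups), the highest liver stood apart from the others by a gap above Dixon's critical value of 0.625 of the whole range. Replicate 3 of the control WT livers did so for 6 genes: Cd74 at 446.9 CPM, H2-Ab1 at 268.7 CPM, H2-Eb1 at 181.8 CPM, H2-Aa at 147.9 CPM, H2-DMa at 24.4 CPM and Ciita at 2.42 CPM. Replicate 5 of the Stat3-deleted livers did so for H2-Ab1 at 137.1 CPM and H2-Eb1 at 96.6 CPM. These genes are not independent of each other, so the 8 sets are not 8 separate events.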

How the results depend on the processing

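With all livers or any 1 liver other than control WT replicate 3 left out, and under every scaling, filter, block and tool run, 0 of 6 class II genes passed in the 3 comparisons. Leaving out 1 liver gave 0 to 2 class II genes in Stat3-deleted against control livers, the 2 without that replicate. Added after seeing the data, leaving it out together with library totals gave 1, with RLE factors 2, with DESeq2 4 (H2-Ab1 and H2-DMa too), with limma voom 2, with the replicate block 1, blocking on the run of label numbers 1 and within its lower run alone 0; with a second liver left out it was 1 to 4, and in tumour-bearing WT against control livers 0 to 1. Over all genes, Stat3-deleted against control livers gave 544 calls, 860 with DESeq2, 894 with the 2 groups alone and 258 to 783 with 1 liver left out. Tumour-bearing WT against control livers gave 252, 462 with DESeq2, 128 with the 2 groups alone, 126 with a block for the run of label numbers in the 2 WT groups, and 132 to 462 with 1 liver left out. Within the lower run of label numbers alone, a choice added after seeing the data, 608 genes rose and 455 fell in Stat3-deleted against tumour-bearing WT, 152 and 128 in Stat3-deleted against control, and 41 and 8 in tumour-bearing WT against control livers. Library totals changed the share of calls that were higher from 78.2 to 39.4% there, from 47.2 to 61.1% in Stat3-deleted against tumour-bearing WT and from 45.2 to 27.2% in Stat3-deleted against control livers, and put H2-Ab1 at -0.09 and H2-Eb1 at -0.04 in the last. Relations with Cd74 numbered 11 and, with 1 liver left out, 0 to 11. The causes were not tested. In the main fit the livers were not paired by replicate number. Same-numbered livers had r of -0.13 to 0.31 in their deviations, 4 of 18 pairs were above 0.1, and 3 of 18 livers correlated best with their own number. Most same-numbered livers of the 2 WT groups have adjacent label numbers, so whether the numbers pair livers stays unknown. With the replicate number as a block, 219, 710 and 570 genes were called in tumour-bearing WT against control, Stat3-deleted against tumour-bearing WT, and Stat3-deleted against control livers. Depth limits Ciita most, with 87 counts in all.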
